A study of Mus musculus with 17 samples.

Results

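The liver messenger RNA of 10 mouse genes for secreted plasma proteins was followed across 4 groups of mice on high-fat diet, alcohol, both or neither. The genes were the 3 orosomucoids (Orm1, Orm2, Orm3), haptoglobin (Hp), hemopexin (Hpx), ceruloplasmin (Cp), the protease inhibitors Serpina3n and Serpina3m, and the inter-alpha-trypsin inhibitor heavy chains Itih3 and Itih4. They were chosen by gene symbol, and every probe carrying 1 of these symbols was taken, which gave 11 of the 41174 probes that are not controls and 10 of the 19359 genes with a symbol and a tested probe. Cp had 2 probes and each other gene had 1.

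Male mice were fed for 3 months and then gavaged once before the liver was taken. The chow group (n = 4) ate chow and received maltose, and the group called 1B (n = 4) ate chow and received ethanol at 5 g/kg. The HFD group (n = 4) ate a high-fat diet and received maltose, and the group called HFD+1B (n = 5) ate the high-fat diet and received ethanol at 5 g/kg. The labels give the strain as C57BL/6N, whereas the study's methods name C57BL/6J. No gene was altered, and each array carried the RNA of the whole liver tissue of 1 mouse, so fewer cells of a type and less RNA per cell cannot be told apart. Every value below is a log2 ratio of a mouse's liver (Cy5 dye) to a common reference RNA (Cy3 dye) on a 2-colour array; a difference of 1 is a 2-fold change, and ratios of different genes cannot be ranked by level. The reference is labelled both as assorted mouse total RNA and as liver.

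These proteins belong to the acute phase response. In inflammation, cytokines such as interleukin 6 and interleukin 1 reach the hepatocyte and act through STAT3, C/EBP and NF-kB factors to raise the transcription of a set of plasma proteins. Orosomucoids, also called alpha-1-acid glycoproteins, bind drugs and dampen immune cells; haptoglobin captures free hemoglobin, hemopexin captures heme, and ceruloplasmin carries copper and oxidises iron. Serpina3n is a mouse counterpart of human alpha-1-antichymotrypsin and blocks serine proteases, and Serpina3m lies in the same gene cluster. Itih3 is a heavy chain that is linked to bikunin and carried on hyaluronan, whereas Itih4 belongs to the same family but lacks the bikunin link.

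HFD+1B livers carried the highest mean ratio for 9 of the 10 genes, the exception being Serpina3m, which was highest in 1B livers. In HFD+1B against chow, 9 of the 10 genes rose, from 1.43-fold for Cp to 7.95-fold for Serpina3n, and none fell. Ethanol alone raised Serpina3n and Serpina3m, where 2.09% of all genes were called higher, and the high-fat diet alone raised Hp, where 4.50% were. The Serpina3m call was lost in 5 of the 17 fits that left out a mouse, and the Hp call in 8. Of the 48 measured HFD+1B values, 44 lay above every chow mouse for that gene, as did 25 of the 40 values in 1B and 19 of the 38 in HFD. These values are not independent, since each mouse gave a value for most of the genes. No share over all genes is given beside these counts.

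**Figure D1:**
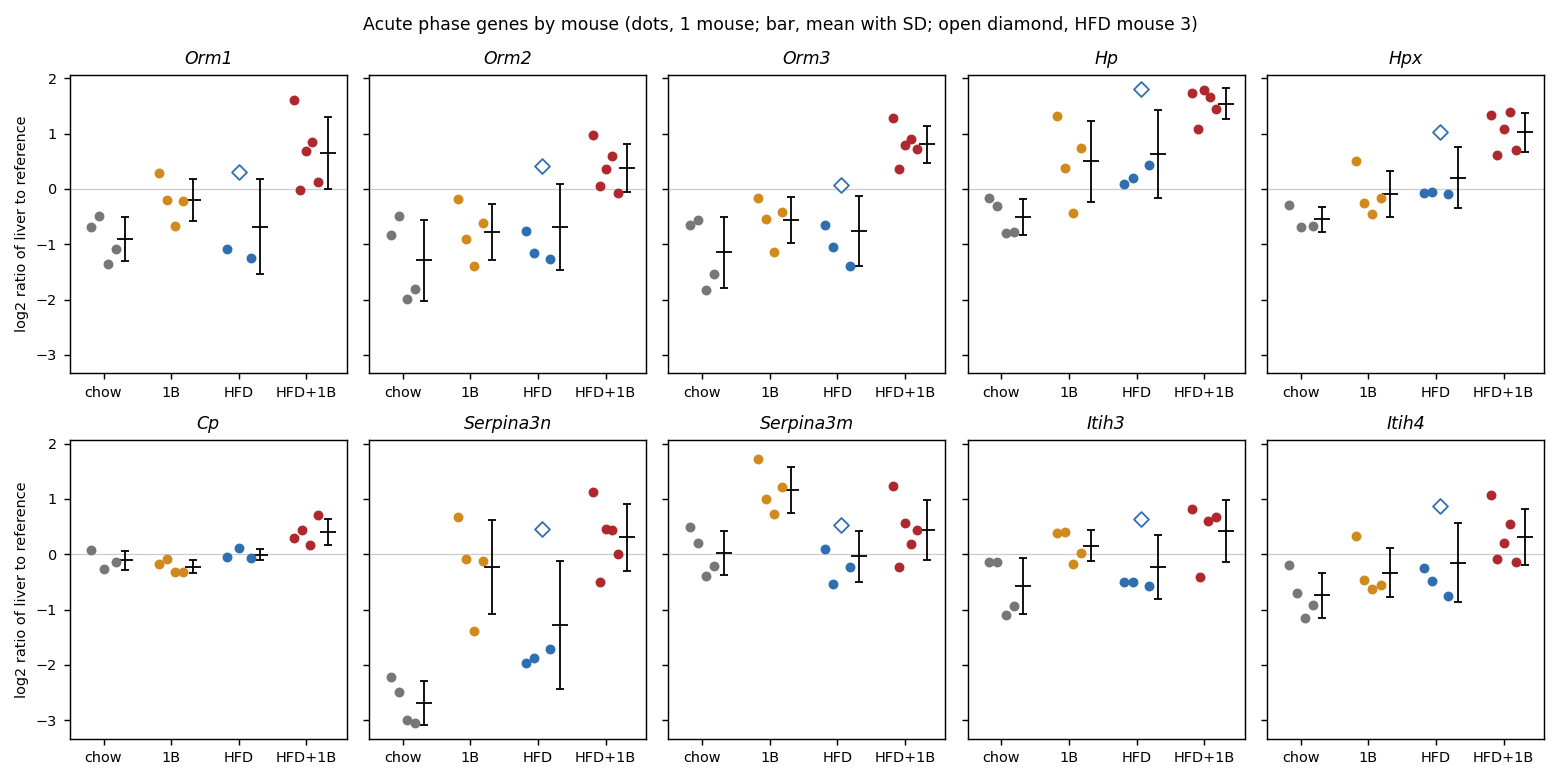
Log2 ratio of liver to reference RNA (vertical axis) for each of the 10 genes in every mouse of the chow, 1B, HFD and HFD+1B groups; each dot is 1 mouse, each bar a group mean with its SD, and the open diamond is HFD mouse 3. HFD+1B mice lie above every chow mouse for 8 genes (no share over all genes is given), and HFD mouse 3 stands above the other HFD mice for most genes.

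All 11 probes were well above background on all 17 arrays and none was saturated, but 6 values on the chosen probes were missing because the spot was flagged as an outlier by the scanner software, and each gene's n is given where this matters. HFD mouse 3 stood apart from the other HFD mice and is given separately below. All 7 hepatocyte markers tested were well above background on every array. In HFD+1B against chow, the markers of other cells moved in part: of 12 neutrophil markers 3 rose and 1 fell, of 7 macrophage markers 1 rose, of 7 stellate cell markers 5 rose, of 6 sinusoidal endothelial markers 2 rose and 2 fell, of 5 cholangiocyte markers 1 rose, of 6 adipocyte markers 1 rose, of 4 erythroid markers 2 rose and of 5 lymphocyte markers none passed (adjusted p of 0.05 or less, limma). For comparison, the share of all genes called in HFD+1B against chow was 8.91% higher and 7.40% lower. The summed linear ratio over the 11 neutrophil markers with a value on every array was 12.1 to 15.8 among HFD+1B mice and 11.3 to 14.7 among chow mice, with 1B at 10.9 to 14.1 and HFD at 10.8 to 14.9, so the groups overlapped for these 11. The 3 ribosomal RNA probes lay lower in the HFD mice, by a mean of 2.41 to 4.08 on the log2 scale below the chow mean, than in the other groups. The part of these markers and of ribosomal RNA in the results was not tested.

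The stretches just before the start of the messenger RNA, where factors of the acute phase response can act, were read for the genes with a listed stretch. RefSeq (GRCm38.p6) gave such a stretch for 7 of the 10 genes: Orm2, Orm3, Hpx, Cp, Serpina3n, Itih3 and Itih4. In the 250 bases before each start, both strands were searched for the letters of a STAT site (TTCNNNGAA), of a type II interleukin 6 response element (CTGGGAA), of a C/EBP site (TTGCNNAA) and of an NF-kB site (GGGANTTCC), where N is any base. Cp has 2 listed starts, so the 7 genes gave 8 windows. The C/EBP letters stood in 4 of the 8 (Orm2, Orm3, Hpx and the window before the second Cp start, which lies inside the gene) and in 9.56% of all 32851 RefSeq windows of that length. The STAT letters stood in 1 of the 8, that of Itih4, and in 7.02% of all windows. The interleukin 6 and NF-kB letters stood in none of the 8, against 9.1% and 1.43% of all windows. No match overlapped another. Below are the stretches that carry a match in the orosomucoids, hemopexin and Itih4, each on the gene's own strand from 5′ to 3′ and ending before the first base of any RefSeq transcript, with the matched letters in capitals.

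Orm2, chr4:63362199-63362448, plus strand: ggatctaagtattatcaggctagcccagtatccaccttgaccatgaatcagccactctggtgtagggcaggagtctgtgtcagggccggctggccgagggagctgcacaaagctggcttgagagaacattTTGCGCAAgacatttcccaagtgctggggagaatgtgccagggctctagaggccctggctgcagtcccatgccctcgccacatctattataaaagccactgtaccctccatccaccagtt
Orm3, chr4:63355908-63356068, plus strand: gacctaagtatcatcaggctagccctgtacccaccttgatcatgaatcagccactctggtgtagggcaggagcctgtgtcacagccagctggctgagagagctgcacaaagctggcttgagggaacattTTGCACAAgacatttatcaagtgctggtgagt
Hpx, chr7:105600117-105600366, minus strand: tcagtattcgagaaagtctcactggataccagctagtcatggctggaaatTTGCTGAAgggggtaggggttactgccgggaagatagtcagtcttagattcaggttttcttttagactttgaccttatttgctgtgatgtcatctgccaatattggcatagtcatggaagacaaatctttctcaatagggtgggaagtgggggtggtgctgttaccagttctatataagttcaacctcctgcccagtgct
Itih4, chr14:30886226-30886475, plus strand: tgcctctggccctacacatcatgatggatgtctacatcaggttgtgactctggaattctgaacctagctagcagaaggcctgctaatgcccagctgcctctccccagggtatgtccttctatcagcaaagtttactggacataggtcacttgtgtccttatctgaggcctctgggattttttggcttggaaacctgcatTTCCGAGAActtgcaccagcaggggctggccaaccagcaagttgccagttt

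The C/EBP letters began 120 bases before the Orm2 start. They began 121 bases before the Orm3 start that the RefSeq window is built on, which lies inside the gene as RefSeq draws it, so that the printed Orm3 stretch ends earlier than its window. Laid side by side without gaps 144 of 161 bases of these stretches were identical (89.4%). The C/EBP matches of Orm2 and Orm3 are therefore not independent of each other. The C/EBP letters of Hpx began 200 bases before its start, and the STAT letters of Itih4 began 51 bases before its start. A match is a stretch of letters and not a measured binding site, and its part in the results was not tested.

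Orm1, Orm2 and Orm3 are neighbours on chromosome 4 and encode closely related proteins, so the array probes that told them apart are shown, each 60 bases from 5′ to 3′ as deposited.

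Orm1 probe: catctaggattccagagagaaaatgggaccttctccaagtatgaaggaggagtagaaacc
Orm2 probe: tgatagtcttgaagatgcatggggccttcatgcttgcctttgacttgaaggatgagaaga
Orm3 probe: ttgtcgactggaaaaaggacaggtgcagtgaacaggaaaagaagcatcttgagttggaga

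The longest run of bases that any pair of these probes shared was 7. Cross-hybridisation between the family members was not tested.

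All 3 orosomucoids were highest in HFD+1B livers and rose against chow and against HFD. Orm3 showed this most evenly. Its log2 ratios were −0.66, −0.56, −1.83 and −1.55 in chow mice 1 to 4, and −0.16, −0.54, −1.13 and −0.42 in 1B mice 1 to 4. They were −0.66, −1.05, 0.08 and −1.39 in HFD mice 1 to 4, and 1.28, 0.35, 0.79, 0.89 and 0.73 in HFD+1B mice 1 to 5. Every HFD+1B mouse lay above every mouse of the other 3 groups, while chow, 1B and HFD overlapped. Orm3 was 3.88-fold higher in HFD+1B than in chow (log2 difference 1.96, SE 0.30, adjusted p = 0.00020), 2.95-fold higher than in HFD (1.56, SE 0.30, adjusted p = 0.0018) and 2.59-fold higher than in 1B (1.37, SE 0.30, adjusted p = 0.0066).

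Orm1 gave ratios of −0.69, −0.49, −1.36 and −1.09 in chow and 0.28, −0.19, −0.66 and −0.22 in 1B. It gave −1.09, 0.30 and −1.25 in HFD mice 2 to 4, with mouse 1 missing, and 1.61, −0.03, 0.69, 0.85 and 0.12 in HFD+1B. All HFD+1B mice lay above all chow mice, but HFD mouse 3 and 1B mouse 1 reached into the HFD+1B range. Orm1 was 2.94-fold higher in HFD+1B than in chow (1.56, SE 0.34, adjusted p = 0.0042) and 2.51-fold higher than in HFD (1.33, SE 0.37, adjusted p = 0.019), and the difference from 1B was 0.85 (SE 0.34, adjusted p = 0.135). The call against HFD was lost without HFD mouse 2 (1.12, adjusted p = 0.0813) or HFD mouse 4 (1.04, adjusted p = 0.107).

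Orm2 lay between −0.08 and 0.98 in the HFD+1B mice, between −2.0 and −0.50 in the chow mice, between −1.39 and −0.18 in the 1B mice and between −1.27 and 0.42 in the HFD mice. All HFD+1B mice lay above all chow and all 1B mice, and 1 HFD mouse, again mouse 3, lay within the HFD+1B range. Orm2 was 3.17-fold higher in HFD+1B than in chow (1.67, SE 0.36, adjusted p = 0.0036), with 1.07 against HFD (SE 0.36, adjusted p = 0.046) and 1.15 against 1B (SE 0.36, adjusted p = 0.049). Both of these last calls lay close to the threshold. The first was lost in 9 of the 17 fits that left out a mouse (adjusted p up to 0.147). The second was lost in 11 of 17 (adjusted p up to 0.163). Some of these fits left out a mouse of neither group, with the difference unchanged. Examples are 1.07 against HFD without 1B mouse 2 (adjusted p = 0.0535) and 1.15 against 1B without chow mouse 1 (adjusted p = 0.0524). In 1B against chow and in HFD against chow no orosomucoid passed the test, with differences of 0.51 to 0.71 and 0.23 to 0.59.

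Within an array, the Orm3 ratio minus the Orm2 ratio, set to 0 at the chow mean, lay at −0.48 to −0.03 in the HFD mice and at 0.16 to 0.67 in the HFD+1B mice, with the chow mice at −0.20 to 0.13 and the 1B mice at −0.12 to 0.23. All HFD mice were thus below all HFD+1B mice on this measure; the pair was chosen after its values were seen and no test was made.

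Hp and Hpx, the carriers of hemoglobin and heme, rose in HFD+1B, and Hp also rose on the high-fat diet alone. Hp ratios were −0.17, −0.31, −0.80 and −0.78 in chow and 1.31, 0.38, −0.43 and 0.73 in 1B. The HFD mice gave 0.09, 0.20, 1.80 and 0.44, and the HFD+1B mice 1.73, 1.09, 1.79, 1.65 and 1.44. All HFD and all HFD+1B mice lay above all chow mice, 1B mouse 3 fell within the chow range, and HFD mouse 3 was the highest mouse of all. Hp was 4.15-fold higher in HFD+1B than in chow (2.05, SE 0.33, adjusted p = 0.00030) and 2.22-fold higher in HFD than in chow (1.15, SE 0.35, adjusted p = 0.043). The HFD call was lost in 8 of the 17 fits that left out a mouse (without any chow mouse, 1B mouse 2, HFD mice 3 or 4 or HFD+1B mouse 3): without HFD mouse 3 the difference was 0.76 (adjusted p = 0.144). With the slide as a block it was 0.98 (adjusted p = 0.0583). The differences of Hp in 1B against chow (1.01, SE 0.35, adjusted p = 0.141), in HFD+1B against HFD (0.91, SE 0.33, adjusted p = 0.064) and in HFD+1B against 1B (1.04, SE 0.33, adjusted p = 0.052) did not pass, but leaving out a mouse gained the first in 2 fits (without 1B mouse 3 or HFD mouse 3), the second in 3 (without 1B mice 1 or 3 or HFD mouse 3) and the third in 4 (without 1B mouse 1, HFD mice 1 or 3 or HFD+1B mouse 2). The second also passed with the slide as a block (1.05, adjusted p = 0.0201) and with median centring (1.17, adjusted p = 0.0175).

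Hpx gave −0.29, −0.68 and −0.68 in chow mice 2 to 4, with mouse 1 missing, and 0.50, −0.25, −0.45 and −0.16 in 1B. The HFD mice gave −0.07, −0.06, 1.03 and −0.09, and the HFD+1B mice 1.34, 0.61, 1.08, 1.39 and 0.71. HFD+1B mice lay above all chow and all 1B mice, and of the HFD mice mouse 3 alone reached their range. Hpx was 2.97-fold higher in HFD+1B than in chow (1.57, SE 0.26, adjusted p = 0.00055), 2.17-fold higher than in 1B (1.12, SE 0.24, adjusted p = 0.0071) and 1.77-fold higher than in HFD (0.82, SE 0.24, adjusted p = 0.026), a difference that became −0.040 (adjusted p = 0.895) when the Cy5 channel was used without the reference. The call against HFD was also lost without HFD mice 1, 2 or 4 or HFD+1B mice 1 or 4 (adjusted p of 0.0576 to 0.0858).

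Cp moved least. Its brighter probe gave 0.08, −0.26 and −0.15 in chow mice 2 to 4 and −0.17, −0.09, −0.32 and −0.32 in 1B. It gave −0.06, 0.11 and −0.07 in HFD mice 1, 2 and 4, and 0.29, 0.44, 0.17 and 0.70 in HFD+1B mice 1 to 4. All measured HFD+1B mice lay above all measured mice of the other groups. With the flagged spots kept they did not: HFD mouse 3 (0.33) then lay above HFD+1B mice 1 (0.28), 3 (0.17) and 5 (0.23). Cp was higher in HFD+1B than in 1B by 0.63 (SE 0.12, adjusted p = 0.0039), than in chow by 0.51 (SE 0.13, adjusted p = 0.014) and than in HFD by 0.40 (SE 0.13, adjusted p = 0.042). The call against chow was lost without chow mouse 3 (0.44, adjusted p = 0.0733) or chow mouse 4 (0.49, adjusted p = 0.0528), with median centring (0.44, adjusted p = 0.10) and in the authors' normalised values (0.33, adjusted p = 0.151). The call against HFD was lost in 6 of the 17 fits that left out a mouse, namely without chow mouse 4, HFD mice 1, 3 or 4 or HFD+1B mice 2 or 4 (adjusted p of 0.0502 to 0.127). Without chow mouse 4 or HFD mouse 3, which had no Cp value, the difference itself stayed at 0.40. The call against HFD was also lost with the flagged spots kept (0.28, adjusted p = 0.107), and in 17 of all 36 settings. The second Cp probe, which carries the accession of another transcript, gave a difference of 0.17 against chow (adjusted p = 0.521), −0.01 against HFD (adjusted p = 0.963) and −0.20 against 1B (adjusted p = 0.479), so the probes disagreed. With the mean of both probes all 3 Cp calls were lost. The differences were then 0.28 against chow (adjusted p = 0.0847), 0.18 against HFD (adjusted p = 0.245) and 0.19 against 1B (adjusted p = 0.296). Every count that names Cp rests on its brighter probe.

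**Figure D2:**
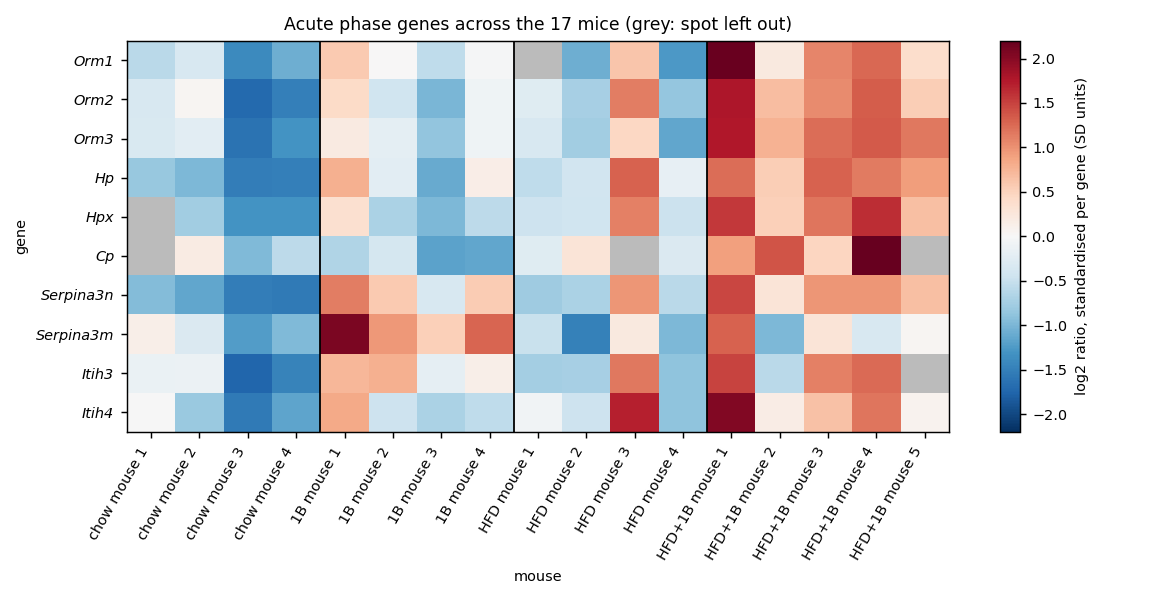
Deviation of each mouse from a gene's mean over the measured mice, in SD units of that gene (colour), for the 10 genes (rows) in the 17 mice (columns, ordered by group). Most cells of the HFD+1B mice are above the gene's mean, most of the chow mice are below it, and HFD mouse 3 differs from the other HFD mice.

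Serpina3n showed the widest range of the 10 genes and rose with ethanol on either diet. Its ratios were −2.22, −2.48, −2.99 and −3.05 in chow and 0.67, −0.09, −1.38 and −0.12 in 1B. The HFD mice gave −1.97, −1.87, 0.45 and −1.71, and the HFD+1B mice 1.12, −0.50, 0.45, 0.44 and 0.00. Every mouse of the other 3 groups lay above every chow mouse, and 3 of the 4 HFD mice lay below all HFD+1B mice. Serpina3n was 5.49-fold higher in 1B than in chow (2.46, SE 0.48, adjusted p = 0.0065), 7.95-fold higher in HFD+1B than in chow (2.99, SE 0.46, adjusted p = 0.00020) and 2.99-fold higher in HFD+1B than in HFD (1.58, SE 0.46, adjusted p = 0.023). The difference between HFD and chow was 1.41 (SE 0.48, adjusted p = 0.072) and became 0.84 (adjusted p = 0.231) without HFD mouse 3. The call of HFD+1B against HFD was lost without HFD mice 1, 2 or 4 or HFD+1B mice 1 or 4 (adjusted p of 0.0502 to 0.0748) and was kept without HFD mouse 3 (2.15, adjusted p = 0.0012). HFD+1B and 1B overlapped (0.54, 95% CI −0.43 to 1.5, adjusted p = 0.579).

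Serpina3m, its neighbour on chromosome 12, was highest in 1B. It gave 0.48, 0.20, −0.39 and −0.22 in chow and 1.72, 1.00, 0.73 and 1.21 in 1B. The HFD mice gave 0.09, −0.54, 0.53 and −0.23, and the HFD+1B mice 1.23, −0.23, 0.57, 0.18 and 0.43. All 1B mice lay above all chow and all HFD mice, whereas 2 of the 5 HFD+1B mice lay above the chow range. Serpina3m was 2.21-fold higher in 1B than in chow (1.14, SE 0.29, adjusted p = 0.031), a call that was lost in 5 of the 17 fits that left out a mouse (without 1B mice 1, 2 or 4 or chow mice 3 or 4; adjusted p of 0.0551 to 0.123). The HFD+1B difference from chow was 0.42 (95% CI −0.16 to 0.99, adjusted p = 0.376), and from 1B it was −0.73 (SE 0.27, adjusted p = 0.106), lower on 4 of 4 slides by 0.49 to 1.03. The difference from HFD (0.47, adjusted p = 0.251) passed with the slide as a block (0.60, adjusted p = 0.0300). The difference from 1B passed with the slide as a block (−0.78, adjusted p = 0.0108) and without HFD+1B mouse 1 (−0.93, adjusted p = 0.0242).

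Within an array, the Serpina3m ratio minus the Serpina3n ratio, set to 0 at the chow mean, lay between −0.10 and 0.13 in the chow mice and between −1.66 and −0.60 in the 1B mice, and reached −2.63 to −0.65 in the HFD mice and −2.97 to −2.28 in the HFD+1B mice. The difference was below every chow mouse in all 13 mice of the other groups; this pair too was chosen after its values were seen and carries no test. The probes of both genes shared no run longer than 6 bases.

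**Figure D3:**
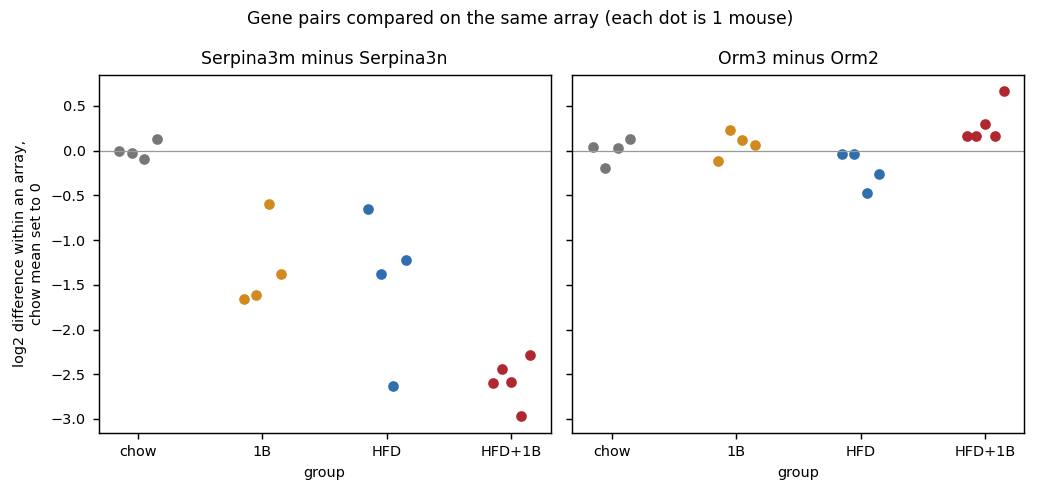
Difference within each array between the log2 ratios of Serpina3m and Serpina3n and of Orm3 and Orm2, set to 0 at the chow mean (vertical axes), by group; each dot is 1 mouse. The Serpina3m minus Serpina3n difference lies below the chow range in all mice of the other groups, and the Orm3 minus Orm2 difference lies above 0 in all HFD+1B mice.

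Itih3 and Itih4, neighbours on chromosome 14, rose in HFD+1B against chow by about 2-fold, and each of these calls was lost in 5 of the 17 fits that left out a mouse. Itih3 lay between −0.41 and 0.82 in the HFD+1B mice (n = 4, mouse 5 missing), between −1.09 and −0.13 in the chow mice, between −0.17 and 0.40 in the 1B mice and between −0.58 and 0.63 in the HFD mice. HFD+1B mouse 2 lay within the chow range, so the groups overlapped. Itih3 was 2.00-fold higher in HFD+1B than in chow (1.00, SE 0.30, adjusted p = 0.035), and this call was lost without HFD+1B mice 1, 3 or 4 or chow mice 3 or 4 (adjusted p of 0.0798 to 0.118).

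Itih4 lay between −0.15 and 1.08 in the HFD+1B mice, between −1.16 and −0.20 in the chow mice, between −0.63 and 0.33 in the 1B mice and between −0.75 and 0.87 in the HFD mice. All HFD+1B mice lay above all chow mice, and the 1B and HFD mice overlapped both groups. Itih4 was 2.09-fold higher in HFD+1B than in chow (1.06, SE 0.31, adjusted p = 0.026), and this call was lost without HFD+1B mice 1 or 4 or chow mice 2, 3 or 4 (adjusted p of 0.0536 to 0.0924), with median centring (0.96, adjusted p = 0.0559) and in the authors' normalised values (0.96, adjusted p = 0.0541). Neither gene passed in the other comparisons, but Itih3 in HFD+1B against HFD (0.66, adjusted p = 0.147) did so with the slide as a block (0.85, adjusted p = 0.0298), with median centring (0.93, adjusted p = 0.0296), without HFD mouse 3 and without HFD+1B mouse 2 (0.94, adjusted p = 0.0362).

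Counts of the 10 genes called are read against those of all 19359 genes. In HFD+1B against chow 9 of the 10 genes were called higher and none lower, where 8.91% of all genes were called higher and 7.40% lower, and the members' median difference was 1.56. Against HFD, 6 were called higher in HFD+1B (Orm1, Orm2, Orm3, Hpx, Cp and Serpina3n; background 11.0% higher and 8.39% lower; median 0.86). Against 1B, 4 were called higher in HFD+1B (Orm2, Orm3, Hpx and Cp; background 6.29% and 5.14%; median 0.75). In 1B against chow 2 were called higher (Serpina3n and Serpina3m; background 2.09% and 2.05%; median 0.65), and in HFD against chow 1 was (Hp; background 4.50% and 6.46%; median 0.49). Median centring in place of loess shifted the background: it gave 8.29% higher and 4.21% lower in HFD+1B against chow, 19.0% and 2.32% against HFD, 6.52% and 2.10% against 1B, 1.08% and 1.60% in 1B against chow and 1.43% and 8.98% in HFD against chow. The median over all genes with loess was between −0.01 and 0.01 in each of these comparisons, which share groups of mice and so are not independent of each other.

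Whether ethanol acted differently on the 2 diets was tested as an interaction, the ethanol difference on the high-fat diet minus that on chow. None of the 10 genes passed in limma at an adjusted p of 0.05, where 2.67% of all genes were called higher and 1.72% lower (5.71% and 0.408% with median centring); at an unadjusted p of 0.05, 2 did. These were Orm3 (0.98, 95% CI 0.07 to 1.89, adjusted p = 0.216) and Cp (0.52, 95% CI 0.13 to 0.91, adjusted p = 0.125). The second Cp probe gave an interaction of the other sign (−0.38, 95% CI −0.81 to 0.05, adjusted p = 0.322). The lowest estimates were those of Serpina3n (−0.88, 95% CI −2.28 to 0.52, adjusted p = 0.505) and Serpina3m (−0.67, 95% CI −1.51 to 0.16, adjusted p = 0.367).

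**Figure D4:**
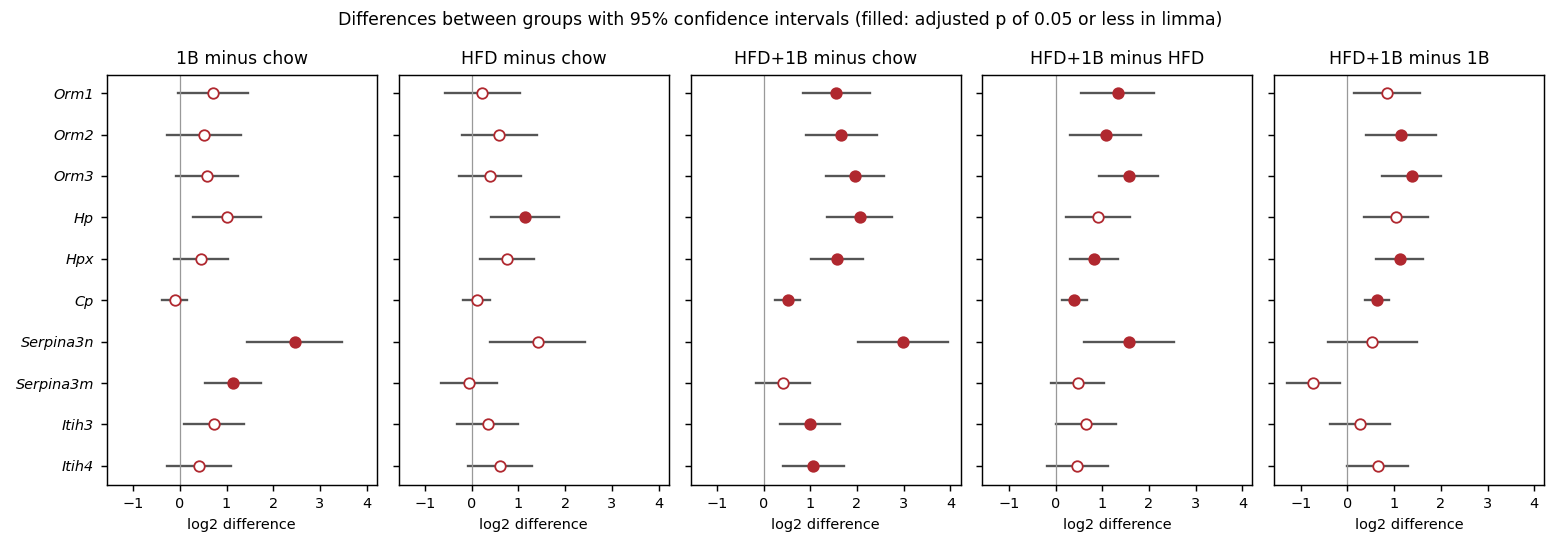
Log2 difference between groups (horizontal axis) for each of the 10 genes in 5 comparisons of groups; points are limma estimates, lines are 95% confidence intervals and filled points passed an adjusted p of 0.05. In HFD+1B against chow 9 of 10 points are filled, all of them above 0.

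Each slide carried mice of several groups, which allowed comparison within a slide. HFD+1B lay above chow on every slide that had both: on 4 of 4 for Orm1, Orm2, Orm3, Hp, Serpina3n, Serpina3m and Itih4, on 3 of 3 for Hpx and Itih3 and on 2 of 2 for Cp. The differences ran from 1.28 to 2.33 for Orm3, from 1.74 to 2.56 for Hp and from 2.49 to 3.50 for Serpina3n. In 1B against chow, Serpina3n was higher on 3 of 3 slides (1.61 to 2.89) and Serpina3m on 3 of 3 (0.80 to 1.23). In HFD against chow, Hp was higher on 3 of 3 (0.26 to 2.58). HFD+1B lay above HFD on every slide with both for Orm1, Orm3, Hpx, Cp and Serpina3m. On slide 4, which carried HFD mouse 3, the difference was −0.067 for Orm2, −0.013 for Hp, −0.0038 for Serpina3n, −0.030 for Itih3 and −0.67 for Itih4, while the other slides were higher for these genes.

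HFD mouse 3 carried ratios near those of HFD+1B mice although its label gives maltose. Levels were averaged over those of the 10 genes with a value in that mouse and set against the chow mean. HFD mouse 3 stood at 1.61 (9 genes, Cp missing), the other HFD mice at 0.16 to 0.39, the 1B mice at 0.27 to 1.32 and the HFD+1B mice at 0.98 to 2.00. With HFD mouse 3 left out, 7 genes instead of 6 were called in HFD+1B against HFD: Hp (1.29, adjusted p = 0.00585) and Itih3 (0.95, adjusted p = 0.0331) were gained and Cp (0.40, adjusted p = 0.0502) was lost. This mouse had no Cp value, so the Cp difference itself was unchanged. Without HFD mouse 4, by contrast, 1 was called, Orm3. In HFD+1B against chow, Orm1, Orm2, Orm3, Hp, Hpx and Serpina3n were called in all 17 fits that left out a mouse. Over 36 settings, the difference from chow ran from 0.93 to 2.18 for Hp, from 0.82 to 1.70 for Hpx, from 1.40 to 2.15 for Orm3 and from 2.79 to 3.19 for Serpina3n, and each of these 4 passed in all of them.

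The spread within groups ran together across the genes other than Cp. With group means removed, the median Pearson r over the 45 pairs of genes was 0.83. For Cp with the other genes it ran from −0.16 (Serpina3m) to 0.34 (Orm2). In the mean over the measured genes of each mouse, chow mice 1 and 2 (0.43 and 0.33) stood above chow mice 3 and 4 (−0.41 and −0.27), 1B mouse 1 (1.32) was the highest 1B mouse and HFD+1B mouse 1 (2.00) the highest HFD+1B mouse. Chow mouse 1 and HFD+1B mouse 5 each had 8 values. Mouse 1 of chow, of 1B, of HFD (0.39) and of HFD+1B all lay on slide 1. The part of the slide in this spread was not tested. Among the 17987 other genes with a value on all 17 arrays, those whose ratio ran closest across the 17 mice to the mean of the measured members, each first scaled to its own SD, were the magnesium transporter gene Slc41a2 (Pearson r = 0.957), lipocalin 2 (Lcn2, 0.951), the fibrinogen gamma chain (Fgg, 0.943), Lrg1 (0.942) and Ifitm2 (0.936), followed by Syt12 (0.930), the serum amyloid A genes Saa2 (0.929), Saa1 (0.926) and Saa3 (0.923), and Cyb561 (0.915). These correlations span groups that differ and are given as a description of likeness only.

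Other genes of the acute phase response were taken as lists of known members. Of 22 other positive acute phase genes, 13 rose and 3 fell in HFD+1B against chow, with a median difference of 1.76 against 1.56 for the 10 genes. Lipocalin 2, which withholds iron from bacteria, lay between 0.32 and 1.56 in the HFD+1B mice, between −5.93 and −4.30 in the chow mice, between −3.94 and −0.53 in the 1B mice and between −3.25 and 0.71 in the HFD mice, and was higher in HFD+1B than in chow by 6.17 (SE 0.72, adjusted p = 1.55e-05). The metallothioneins, which bind zinc and copper, were higher by 5.14 for Mt2 (SE 0.56, adjusted p = 8.63e-06) and 4.93 for Mt1 (SE 0.58, adjusted p = 1.73e-05), and over 36 settings ran from 3.76 to 5.42 and from 3.32 to 5.19. The 3 that fell were the complement genes C3, C9 and Cfb. In 1B against chow 9 of the 22 rose (2.09% of all genes did) and in HFD against chow 2 did (4.50% of all genes); the mean of the list was 2.01 above chow in HFD mouse 3 and 0.26 to 0.42 in the other HFD mice.

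Of 29 genes that carry the cytokine signal to these promoters (receptors, STAT3 and C/EBP factors and their inhibitors), 12 rose and 4 fell in HFD+1B against chow. Stat3 itself lay between −0.16 and 0.52 in the HFD+1B mice, between −1.17 and −0.91 in the chow mice, between −0.50 and −0.10 in the 1B mice and between −1.37 and −0.84 in the HFD mice. No HFD+1B mouse overlapped chow or HFD, and the difference was 1.28 against chow (SE 0.15, adjusted p = 1.21e-05) and 1.40 against HFD (SE 0.15, adjusted p = 1.79e-05). The C/EBP family gene Cebpd was higher by 1.32 (SE 0.19, adjusted p = 9.66e-05), and the leukemia inhibitory factor receptor Lifr fell by 2.06 on the log2 scale (SE 0.16, adjusted p = 4.29e-07). Over 36 settings the difference from chow ran from −2.19 to −0.64 for Lifr, from 0.65 to 1.37 for Stat3 and from 1.23 to 1.40 for Cebpd. In HFD mouse 3 the mean of this list was −0.06 relative to chow, within the range of the other HFD mice.

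Of 12 negative acute phase genes, which fall in inflammation, 5 fell and 1 rose (median −0.26). Fetuin B (Fetub) fell by 0.94 on the log2 scale (SE 0.12, adjusted p = 4.45e-05) and the lipoprotein component Apom by 0.79 (SE 0.15, adjusted p = 0.0013). The gene that rose was fetuin A (Ahsg; 0.63, SE 0.14, adjusted p = 0.0063), whose difference turned to −0.06 in 1 of 36 settings.

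Family members and partners of the 10 genes were counted in the same way. Of 20 other serpins tested 5 rose and 7 fell (median −0.17): thyroxine-binding globulin (Serpina7) was higher by 1.96 (SE 0.21, adjusted p = 6.30e-06), Serpina3g of the Serpina3 cluster by 1.27 (SE 0.23, adjusted p = 0.00076), and Serpina1d, an alpha-1-antitrypsin gene, fell by 1.20 on the log2 scale (SE 0.21, adjusted p = 0.00056). Of 7 partners of the inter-alpha inhibitors tested 1 rose, Ambp, which encodes bikunin (0.46, SE 0.14, adjusted p = 0.040), while the heavy chains Itih1 (−0.26, adjusted p = 0.082) and Itih2 (0.26, adjusted p = 0.204) did not pass. Of 12 genes that handle heme, hemoglobin and copper 4 rose, among them the ferritin chains Ftl1 (0.68, SE 0.10, adjusted p = 9.60e-05) and Fth1 (0.62, SE 0.09, adjusted p = 9.66e-05). Of 7 serine proteases that serpins block none rose and 3 fell: plasma kallikrein (Klkb1) by 1.25 on the log2 scale (SE 0.18, adjusted p = 0.00012), Mcpt4 by 0.57 (SE 0.09, adjusted p = 0.00027) and cathepsin G (Ctsg) by 0.31 (SE 0.09, adjusted p = 0.030). Over 36 settings the differences ran from −1.37 to −0.60 for Serpina1d, 0.09 to 0.56 for Ambp, 0.32 to 0.72 for Ftl1, −1.04 to −0.48 for Mcpt4 and −0.40 to −0.19 for Ctsg. The hepatocyte marker list, on which 1 gene rose and 1 fell in HFD+1B against chow, had means of −1.09 to −0.64 relative to chow in HFD mice and −0.31 to 0.12 in HFD+1B mice. The low HFD means came mostly from Apob (0.12 in chow, −2.65 in HFD), Tat (−0.68, −2.04) and Cyp3a11 (0.66, −0.80). The others moved less: Alb (1.36, 1.19), Asgr1 (0.18, 0.31), Hnf4a (0.22, −0.14) and Cps1 (0.19, −0.16).

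**Figure D5:**
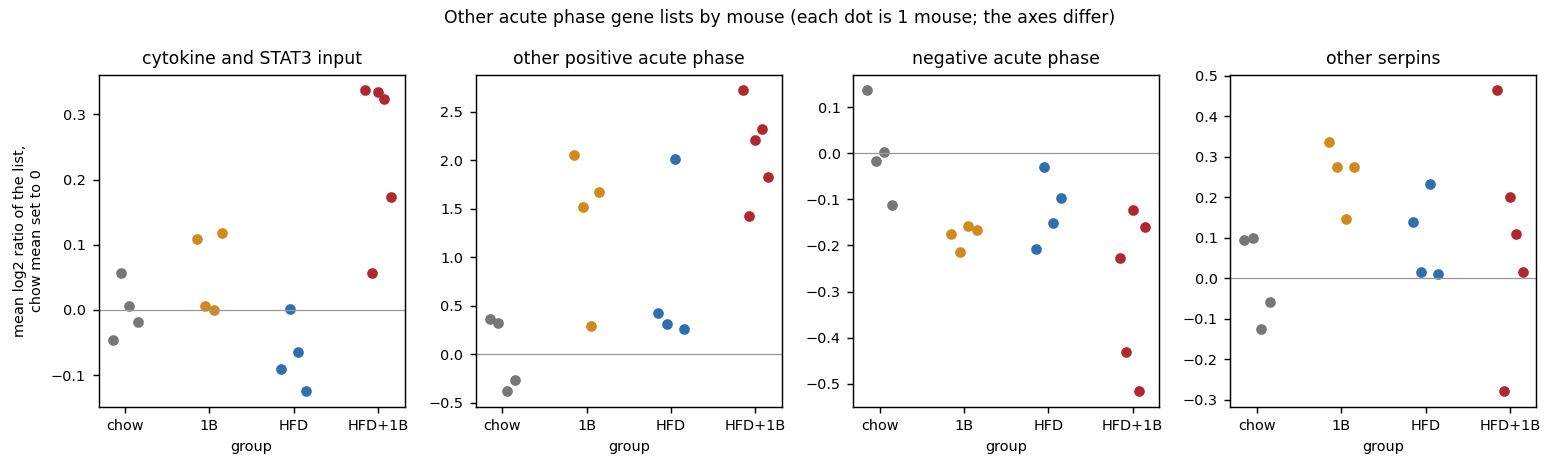
Mean log2 ratio of 4 gene lists relative to the chow mean (vertical axes, which differ) in every mouse, by group; each dot is 1 mouse. The other positive acute phase genes lie at 1.42 to 2.73 in HFD+1B mice and at 2.01 in HFD mouse 3, while the other serpins lie at −0.28 to 0.47 in HFD+1B mice.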

How the data were processed

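The livers of 17 mice were each hybridised (Cy5) with a common reference RNA (Cy3) to Agilent 44K mouse 60-mer arrays, without dye swap, on 5 slides scanned on 1 day; the number of arrays limits the precision. The deposited scanner files hold intensities per spot from Feature Extraction 11.5.1.1, and the authors also deposited a table of log2 ratios made with GeneSpring GX, which served as an alternative and gave the gene symbols. From the deposited median intensities, background was corrected by normexp (offset 50), ratios were loess normalised within arrays, control spots and spots with an outlier flag were left out and spots of a probe were averaged. Probes well above background in Cy5 on at least 4 arrays with a value in every group were kept (34650). Group means over all 17 arrays were fitted with limma 3.58.1 in R 4.3.3, on 13 residual degrees of freedom, with empirical Bayes moderation and Benjamini-Hochberg adjustment over all probes; "called", "rose" and "fell" mean an adjusted p of 0.05 or less. A gene with several probes was read from the one with fewest saturated spots and then the brightest. P-values are two-sided and measure the spread between mice. The script was tested on simulated data. Alternatives covered normalisation, background, filters, array weights, slide or replicate number as a block, and leaving out each mouse. The 10 genes, the gene lists and the marker lists were chosen with earlier results of these data known. List genes named are those with the lowest p in HFD+1B against chow. Upstream stretches and genome positions are RefSeq's (GRCm38.p6), matched by symbol.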

Additional observations from a re-analysis of the deposited data

Results flagged for a closer look

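Among the 40 combinations of a gene and a group that could be examined, 4 held a mouse whose gap to its nearest neighbour took up nearly the whole range of the group (Dixon's ratio above its 95% critical value). Chance would give about 2 if the combinations were independent. They are not, since the genes other than Cp ran together across mice and HFD mouse 3 is counted once for each gene below. HFD mouse 3 was the highest HFD mouse for Serpina3n (ratio 0.895), Hpx (0.969) and Itih3 (0.927). 1B mouse 1 was the highest 1B mouse for Itih4 (0.837). The report gives the HFD results with and without HFD mouse 3.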

How the results depend on the processing

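The counts of the 10 genes called changed as follows. In 1B against chow (2 called) the count was 1 with median centring in place of loess, 1 with the authors' normalised values, 0 with the Cy5 channel alone and 0 with Tukey's method followed by Benjamini-Hochberg adjustment. In HFD against chow (1 called) it was 0 with median centring, without the filter on dim probes, with the slide as a block, with the replicate block, with Tukey's method, with Tukey's method and adjustment, and without HFD mouse 3 with outlier spots kept, which was an alternative chosen after seeing the data; it was 2 with Cy5 alone, with a background offset of 10 and with a rule of at least 2-fold at an unadjusted p of 0.05, and 3 with array weights. With 9 called in HFD+1B against chow, it was 4 with Tukey's method and adjustment. With 6 called in HFD+1B against HFD, it was 3 with the authors' values, 1 with Cy5 alone and 1 with Tukey's method and adjustment, and 9 with the slide as a block and 8 with median centring. With 4 called in HFD+1B against 1B, it was 1 with Cy5 alone and 0 with Tukey's method and adjustment. In the interaction (0 called) it was 2 with median centring, Orm3 (1.39, adjusted p = 0.0455) and Cp (1.06, adjusted p = 0.0147), and 1 with the slide as a block, Cp (0.71, adjusted p = 0.0485). The cause was not tested. Leaving out each mouse in turn gave 1 to 3, 0 to 1, 6 to 9, 1 to 7, 3 to 5 and 0 to 0 called, in the same order. Hpx in HFD+1B against HFD turned to −0.040 with Cy5 alone.

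Median centring moved the median of all genes from 0.008 to 0.14 in HFD+1B against HFD and from −0.0024 to 0.14 in the interaction. The main fit did not take the numbers of the mice as pairs and held no term for the slide. Over 24 pairs with the same number the correlation of deviations from the group mean ran from −0.13 to 0.47 (median 0.17). Over 21 pairs on the same slide it ran from −0.25 to 0.47 (median 0.19). With the replicate block 59 of 60 results kept their call, the exception being Hp in HFD against chow (1.15, adjusted p = 0.0534). The number of arrays limits what could be called, and missing spots left 3 values in a group for Orm1, Hpx and Cp.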
